A study of Mus musculus with 10 samples.

Results

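The genes of cytochrome P450 families 1 to 4 were examined in whole lung RNA from mice with and without Bpifb1, a gene for a secreted protein of the airway lining. Members were all protein-coding genes of the annotation (GENCODE M21) whose symbol names family 1, 2, 3 or 4, except Cyp2f2, which was set aside. This rule, which uses names and no measured value, found 79 of the 47333 genes in the table: 3 of family 1, 47 of family 2, 9 of family 3 and 20 of family 4. The 10 mice, 5 labelled KO and 5 labelled WT for Bpifb1, were C57BL/6J, untreated and 12 weeks old, and RNA came from the right middle lobe of the lung. Among KO mice were 1 male and 4 females, among WT mice 2 males and 3 females. The mice were kept on alpha-dri bedding in cages that held both genotypes. The labels do not describe the KO allele, the breeding or whether the groups were littermates, and p-values measure the spread between these mice only.

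Cytochromes P450 are haem enzymes of the endoplasmic reticulum that put an oxygen atom into their substrates with electrons from NADPH, passed on by the reductase Por. Family 1 genes are induced through the aryl hydrocarbon receptor (Ahr) and oxidise polycyclic aromatic hydrocarbons. Families 2 and 3 hold most enzymes that oxidise drugs and other foreign compounds, and family 4 holds enzymes that hydroxylate fatty acids and leukotrienes. In the mouse lung, club cells of the small airways are known as the main site of P450 activity, and this activity turns some inhaled compounds into products that injure those cells.

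The cysteine that binds the haem iron marks the family at the sequence level. The signature around it, named the cytochrome P450 cysteine haem-iron ligand signature, was searched in the translated coding sequence of each gene. It was found in 77 of the 79 members, all but Cyp2s1 and Cyp2t4. Of the 21782 protein-coding genes of the annotation, 104 held it (0.477%), and these include the 77 members. The search asked for allowed residues at set positions around the cysteine. The lack of a match in Cyp2s1 and Cyp2t4 therefore does not show that they lack the cysteine. For each gene a transcript that held the signature was preferred. The 30 coding bases of the signature crossed an exon junction in 65 members and took 60 distinct forms. The stretches of 6 members that the results turn on are shown 5′ to 3′ with the cysteine codon in capitals (GRCm38, both ends of the stretch given, introns spliced out).
Cyp1a1 (chr9:57702664-57702693, + strand, exon 7): tttggtttgggcaagcgaaagTGCatcgga
Cyp2b10 (chr7:25917420-25926087, + strand, from exon 8): ttctcaacaggaaagcgcattTGTcttggt
Cyp2a5 (chr7:26841860-26842897, + strand, from exon 8): ttttccattggaaaacggtatTGTttcgga
Cyp2e1 (chr7:140773762-140774577, + strand, from exon 8): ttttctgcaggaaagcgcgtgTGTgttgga
Cyp4b1 (chr4:115625216-115625662, - strand, from exon 11): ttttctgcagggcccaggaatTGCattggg
Cyp4f13 (chr17:32924942-32925340, - strand, from exon 12): ttctcagcggggaccaggaacTGCatagga

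Libraries held 21357424 to 28321294 estimated counts, and the 79 members took 0.124% to 0.144% of them. Bpifb1 stood at 59.7 ± 23.6 CPM in WT (SD, n = 5) and at 0.613 ± 0.462 CPM in KO (SD, n = 5), where CPM is counts per 1000000 after scaling by the trimmed mean of M values. KO replicate 5 is labelled female, but its Xist level of 1.78 CPM lay near the 1.29 to 1.73 CPM of the 3 males and far from the 273 to 407 CPM of the other 6 females. It had 0 counts over 4 Y-linked genes, against 2470 to 3441 in the males. Sex differences of members with an unadjusted p under 0.05, of called genes and of the lists are therefore also given without it. Lung markers were abundant: the 9 alveolar type 2 genes summed to 24395 to 30098 CPM and the 13 club cell genes to 28489 to 37324 CPM. Of 9 hepatocyte genes, Fgb was at 0 in every mouse and the mean of Alb was 1.01 CPM, while Trf, which is not made by liver alone, had a mean of 564 CPM and made up nearly all of the list's sum of 535 to 623 CPM.

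Of the 79 members, 22 had enough counts to be tested: 2 of family 1, 10 of family 2, 1 of family 3 and 9 of family 4. The other 57 were not tested. Of these, 31 had 0 counts in every mouse (20 of family 2, 7 of family 3 and 4 of family 4). With the assignment of reads taken as given, this allows up to 3 counts, or 0.103 to 0.143 CPM. Where 50-base stretches also occur in other genes (98.6% of those of Cyp3a41a, 48.9% of those of Cyp4a12a), 0 counts may not bound the level. A further 14 had counts but never 3 in a mouse, and 12 reached 3 counts in at least 1 mouse. Highest among the untested were Cyp2t4 with 6 to 16 counts per mouse and Cyp2b19 with 6 to 11. Cyp1a2, the family 1 enzyme best known from liver, had 1 count over the 10 mice. Cyp4x1, a family 4 member, had 13 counts over the 10 mice.

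Divided by exon length, 2 members stood above all others (the plot of levels per kilobase). The length was that of all annotated exons of a gene merged, whether or not lung transcripts use them, and the order depends on it. Cyp4b1, which hydroxylates fatty acids and activates 4-ipomeanol to a lung toxin, had the highest level at 243 ± 18.1 CPM per kb (SD, n = 10). Cyp2b10, known in liver as the target of the receptor Nr1i3 and as the gene induced by phenobarbital, followed at 156 ± 21.1 CPM per kb. The range of each over the 10 mice lay apart from that of the next member. Cyp2s1 (30.8 CPM per kb) and Cyp2a5 (23.4 CPM per kb), which oxidises coumarin and nicotine, came next, with overlapping ranges.

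**Figure D1:**
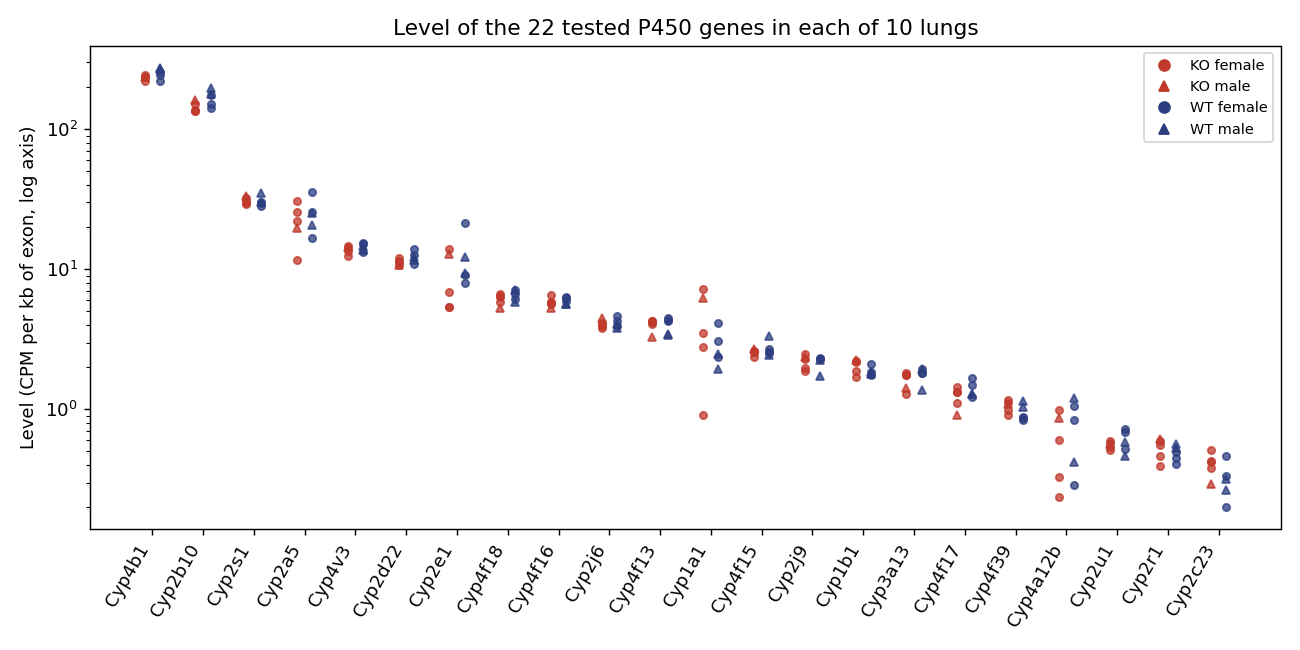
Level per kilobase of exon (CPM per kb, log scale) of the 22 tested members in each of the 10 mice, KO and WT in separate colours and the sexes in separate shapes, members ordered by their mean. Cyp4b1 (mean 243 CPM per kb) and Cyp2b10 (156 CPM per kb) lie above the remaining 20, which run from 30.8 to 0.362 CPM per kb, and the colours overlap in every member.

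The middle of the order held Cyp4v3 (14.1 CPM per kb), the mouse counterpart of human CYP4V2, Cyp2d22 (11.8 CPM per kb) and the ethanol and acetone oxidising Cyp2e1 (10.4 CPM per kb). Cyp4f18, a leukotriene hydroxylase of white blood cells, had 6.35 CPM per kb and Cyp4f16 had 5.90 CPM per kb. The range of Cyp4f16 lay apart from that of the next member, the arachidonic acid epoxygenase Cyp2j6 (4.12 CPM per kb). Below it came Cyp4f13 (4.01), Cyp1a1 (3.46), Cyp4f15 (2.64), the epoxygenase Cyp2j9 (2.19), Cyp1b1 (1.96) and Cyp3a13 (1.69 CPM per kb), the only member of family 3 that was tested. Lowest were Cyp4f17 (1.31), the skin barrier enzyme Cyp4f39 (1.01), Cyp4a12b (0.682), the long-chain fatty acid hydroxylase Cyp2u1 (0.575), the vitamin D 25-hydroxylase Cyp2r1 (0.506) and Cyp2c23 (0.362 CPM per kb), also named Cyp2c44. Apart from the breaks after Cyp4b1, Cyp2b10 and Cyp4f16, the ranges of neighbours in this order overlapped. Before division by length, family 4 took 50.5% and family 2 took 47.5% of the counts of all members.

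Some members are hard to tell apart with reads of 50 bases. Of the 50-base windows of Cyp2a5, 37.0% also occurred in other genes, 28.1% in Cyp2a4, and of those of Cyp4a12b 49.5% did. The coding sequences of Cyp2a5 and Cyp2a4 differed at 23 of 1482 bases (98.45% identity), and those of Cyp4a12b and Cyp4a12a at 23 of 1524 bases (98.49%). The 50-base window with the most differences is shown for each pair, with the differing bases in capitals (bases 207 to 256 of the coding sequence in the first pair, 634 to 683 in the second).
Cyp2a5: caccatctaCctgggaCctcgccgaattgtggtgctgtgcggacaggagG
Cyp2a4: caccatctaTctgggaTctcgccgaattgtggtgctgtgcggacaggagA
Cyp4a12b: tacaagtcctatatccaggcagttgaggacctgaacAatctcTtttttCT
Cyp4a12a: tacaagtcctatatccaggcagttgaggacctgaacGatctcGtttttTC
The authors' table gave 11760 counts over all mice to Cyp2a5 and 35 to Cyp2a4, and 408 to Cyp4a12b against 0 to Cyp4a12a. How reads common to both copies were shared out is not given in the sources used here, so the values of the 4 genes are uncertain. Of the other tested members only Cyp4f16 shared over 10% of its windows (17.4%, mostly with Cyp4f37). Exons of Cyp4v3, Cyp2s1, Cyp4f18 and Cyp2u1 overlapped those of Gm45753, Gm26707, Zfp961 and 4930534D22Rik, by 313, 260, 181 and 548 bases, so part of their counts could belong to either gene.

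The series asked which genes change with the loss of Bpifb1. None of the 22 tested members was called between KO and WT (0 at an adjusted p under 0.05, edgeR's quasi-likelihood test with sex as covariate and Benjamini-Hochberg adjustment over all genes), where 4 of 18024 genes were called, 0.0222%. The count of members called was also 0 by DESeq2 (346 genes called, 1.92%), by limma-voom (2 genes called, 0.0111%) and by edgeR without KO replicate 5. At an unadjusted p under 0.05, 3 members passed and all were lower in KO. Of all genes tested 17% passed at that level, 8.04% lower and 8.92% higher in KO, so 3 of 22 is near the background. The log2 fold change lay below 0 in 15 members and above 0 in 7, with a median of -0.07, while 50.7% of all genes lay below 0 with a median of -0.00. In 0 members did the KO and WT ranges lie apart, against 1.88% of all genes.

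**Figure D2:**
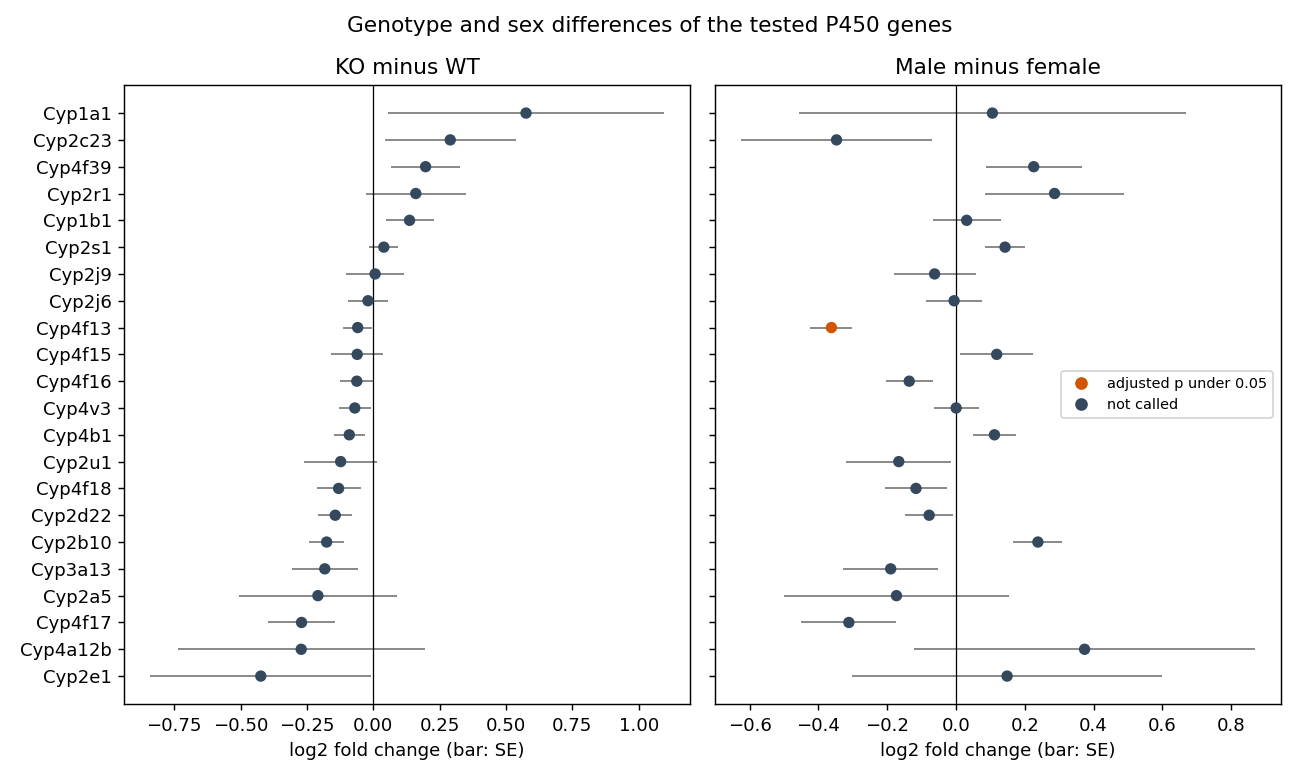
Log2 fold change of the 22 tested members with its standard error (edgeR), KO against WT on the left and male against female on the right, called and not called members in separate colours. On the left the values run from 0.58 for Cyp1a1 to -0.42 for Cyp2e1 and none is called; on the right Cyp4f13 (-0.36) is the single member called, and Cyp1a1, Cyp2e1 and Cyp4a12b have the widest bars in both panels.

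Cyp2b10 had the smallest unadjusted p. In KO mice 1 to 5 its level was 339, 287, 289, 322 and 284 CPM, and in WT mice 1 to 5 it was 320, 415, 377, 369.5 and 299.8 CPM. The 3 highest mice were WT, and WT replicates 1 and 5 lay within the KO range. The log2 fold change was -0.18 (SE 0.066, unadjusted p = 0.0192, adjusted p = 0.221, edgeR). Without WT replicate 4 the log2 fold change was -0.12, the smallest of the values with 1 mouse left out.

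The other lower members were Cyp2d22 and Cyp4f17. Cyp2d22, the mouse counterpart of the human drug enzyme CYP2D6, stood at 41.9, 43.7, 45.1, 46.7 and 42.2 CPM in KO mice 1 to 5 and at 42.8, 45.2, 47.8, 54.3 and 49.6 CPM in WT mice 1 to 5. The 3 highest mice were WT, and WT replicates 1 and 2 lay within the KO range. Its log2 fold change was -0.14 (SE 0.063, unadjusted p = 0.0407, adjusted p = 0.274, edgeR), and -0.09 without WT replicate 4. Cyp4f17, of the leukotriene and fatty acid hydroxylases, stood at 2.91, 3.54, 4.23, 4.60 and 4.26 CPM in KO mice 1 to 5 and at 4.81, 4.14, 4.13, 3.95 and 5.38 CPM in WT mice 1 to 5. Only KO replicates 1 and 2 lay below all WT mice. The log2 fold change was -0.27 (SE 0.12, unadjusted p = 0.0485, adjusted p = 0.291, edgeR).

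The most abundant member, Cyp4b1, stood at 534, 529, 529, 548 and 496 CPM in KO mice 1 to 5. In WT mice 1 to 5 it stood at 499.7, 604, 619, 577 and 554 CPM. The 4 highest mice were WT and WT replicate 1 lay low in the KO range. The log2 fold change of -0.09 (SE 0.057) had an adjusted p of 0.442 (edgeR), and ran from -0.05 without KO replicate 1 to -0.14 without WT replicate 1. Club cell markers lay in the same direction: the mean log2 CPM of 12 of the 13 listed genes was 0.11 lower in KO (-0.11, exact permutation p = 0.135, two-sided, adjusted p = 0.351 over the 13 marker lists). Summed over all 13 genes these markers ran from 28489 to 32041 CPM in KO and from 29891 to 37324 CPM in WT mice, and the part of this in the P450 values was not tested. Unlike the Cyp4b1 value, the marker list difference was not adjusted for sex, and KO held 1 male against 2 in WT. In bulk RNA, fewer cells of a type and less RNA per cell cannot be told apart.

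The remaining members moved little or varied widely within the genotypes. Among the family 2 oxidases, the log2 fold change was 0.04 for Cyp2s1, -0.02 for Cyp2j6, 0.01 for Cyp2j9, -0.12 for Cyp2u1, 0.16 for Cyp2r1 and 0.29 for Cyp2c23. Cyp3a13, an enzyme of the gut in family 3, had -0.18. In family 4 the values were -0.07 for Cyp4v3, -0.06 for Cyp4f16, -0.06 for Cyp4f13, -0.13 for Cyp4f18, -0.06 for Cyp4f15 and 0.20 for Cyp4f39. None of these had an unadjusted p under 0.05 in edgeR's test. The sign for Cyp2j9 and Cyp2j6 turned with single mice left out, and that for Cyp4f13 was 0.01 without the sex covariate.

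The coefficient of variation (CV) over the 10 mice lay above 25% in 5 members. It was 56.0% for Cyp1a1, 51.7% for Cyp4a12b, 46.4% for Cyp2e1, 28.9% for Cyp2a5 and 26.9% for Cyp2c23. The median CV was 11.9% over the tested members and 10.6% over all tested genes. Only 1.41%, 1.85% and 2.41% of all tested genes had a larger CV than Cyp1a1, Cyp4a12b and Cyp2e1. For Cyp2a5 and Cyp2c23 these shares were 10.1% and 12%, so their spread was less unusual. For Cyp2c23 counting error alone gives 23.0%, close to its value, and for Cyp4a12b it gives 15.7%. The steadiest member was Cyp4v3 with 6.37%.

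**Figure D3:**
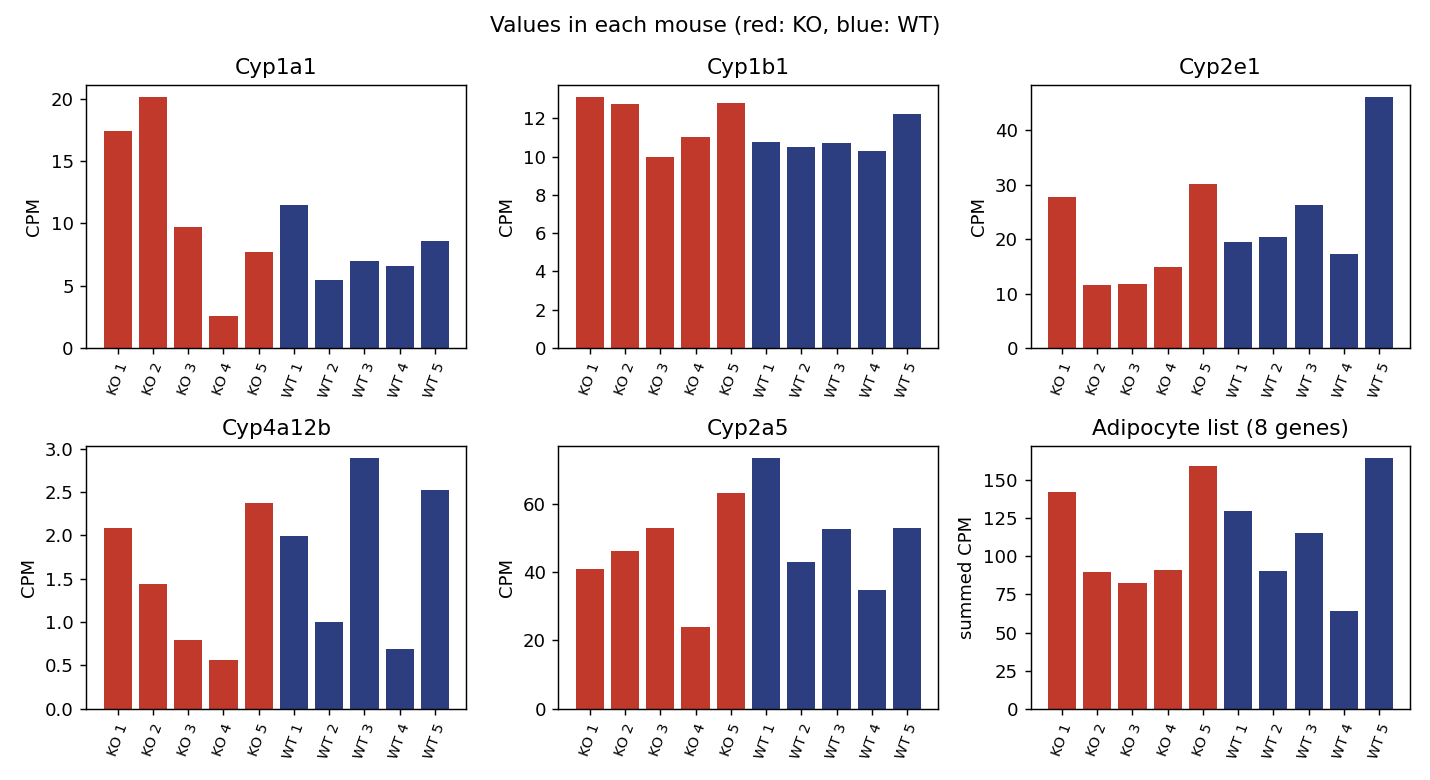
Bars of the level (CPM, from 0) of Cyp1a1, Cyp1b1, Cyp2e1, Cyp4a12b and Cyp2a5 and of the summed level of 8 adipocyte markers in each mouse, KO in red and WT in blue. Cyp1a1 runs from 2.56 to 20.1 CPM with both extremes in KO mice, and Cyp2e1 from 11.6 CPM in a KO mouse to 46.0 CPM in a WT mouse.

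Cyp1a1, the classical target of Ahr, spanned a 7.85-fold range. It stood at 17.4, 20.1, 9.70, 2.56 and 7.74 CPM in KO mice 1 to 5 and at 11.5, 5.43, 6.94, 6.55 and 8.56 CPM in WT mice 1 to 5. KO replicates 1 and 2 were highest, KO replicate 4 was lowest, and all WT mice lay between them. With all mice the KO to WT difference was 0.58 on the log2 scale (SE 0.52, adjusted p = 0.616, edgeR), and it was 0.19 without KO replicate 1, 0.24 without KO replicate 2 and 0.82 without KO replicate 4. Cyp1b1, the other family 1 gene tested, ranged 1.31-fold, from 9.98 to 13.1 CPM. Its log2 fold change was 0.14 (SE 0.090, adjusted p = 0.457, edgeR).

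The core letters that Ahr and its partner Arnt recognise, GCGTG or its reverse complement CACGC, were searched in the 250 bases before the gene start given by RefSeq (GRCm38.p6). Such a stretch was matched for 64 of the 79 members, and 12 of them (18.8%) held the letters. Over all genes 9250 of 32851 stretches (28.2%) held them. A member was counted once if any of its stretches held the letters, while for all genes each stretch was counted, so the shares are not strictly alike. Bases further upstream were not searched. Among tested members the letters were held by 7 of 17 with such a stretch. Both tested family 1 members held them once, and the letters with 20 bases on each side are shown in the direction of transcription, with the match in capitals. In Cyp1a1 the match began 54 bases before the start and in Cyp1b1 76 bases before it.
Cyp1a1 (chr9:57697539-57697583, + strand): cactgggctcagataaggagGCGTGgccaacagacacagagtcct
Cyp1b1 (chr17:79715113-79715157, - strand): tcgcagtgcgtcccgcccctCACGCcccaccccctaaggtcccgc
The letters were searched without regard to the bases beside them. A match is therefore a description only, and does not mark a site of Ahr or show binding. Of the Ahr-responsive genes outside the P450 families, 3 of 4 were tested, and 0 had an unadjusted p under 0.05 between the genotypes (edgeR). Their log2 fold changes were 0.10 for Tiparp, -0.14 for Nqo1 and -0.08 for Aldh3a1 (list median -0.08), with -0.01 for Ahr itself.

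Cyp2e1 stood at 27.8, 11.6, 11.7, 14.9 and 30.03 CPM in KO mice 1 to 5 and at 19.5, 20.3, 26.2, 17.4 and 46.0 CPM in WT mice 1 to 5. WT replicate 5 lay above all others, and 3 KO mice lay below all WT mice. With all mice the KO to WT difference was -0.42 on the log2 scale (SE 0.42, adjusted p = 0.652, edgeR), and 0.02 without WT replicate 5. Fat cell genes were also high in some of these mice. The sum of 8 adipocyte markers was 142, 89.5, 82.3, 91.3 and 159 CPM in KO mice 1 to 5 and 129, 90.3, 115, 64.1 and 164 CPM in WT mice 1 to 5. It was highest in WT replicate 5, KO replicate 5 and KO replicate 1, and these also had the highest Cyp2e1. WT replicate 1 came next at 129 CPM, with Cyp2e1 at 19.5 CPM. Summed cardiac muscle markers were high in the same mice, at 1098, 957 and 1109 CPM, and at 960 CPM in WT replicate 1. In the other mice they ran from 412 to 699 CPM. The part of adipocyte or cardiac muscle RNA in the Cyp2e1 values was not tested. Between the genotypes the adipocyte list differed by 0.15 in mean log2 CPM (exact permutation p = 0.738, two-sided, adjusted p = 0.800).

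Cyp4a12b, which makes 20-HETE from arachidonic acid, stood at 2.08, 1.44, 0.789, 0.564 and 2.37 CPM in KO mice 1 to 5 and at 2.00, 0.9996, 2.89, 0.694 and 2.52 CPM in WT mice 1 to 5. Both groups spanned low and high values and overlapped. Its difference was -0.27 on the log2 scale (SE 0.46, adjusted p = 0.810, edgeR), and 0.01 without WT replicate 5. Cyp2a5 stood at 41.1, 46.1, 52.9, 24.1 and 63.2 CPM in KO mice 1 to 5. In WT mice 1 to 5 it stood at 73.4, 43.0, 52.5, 34.8 and 53.0 CPM, and replicate 4 was lowest in both groups. These numbers follow sample order and pair no mice. Its log2 fold change was -0.21 (SE 0.30, adjusted p = 0.767, edgeR), -0.02 without WT replicate 1, -0.06 without KO replicate 4 and -0.37 without WT replicate 4, and its values carry the doubt over reads shared with Cyp2a4.

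Between the sexes 1 of the 22 members was called, Cyp4f13, where 105 of 18024 genes were called, 0.583%. Cyp4f13 belongs to the subfamily that hydroxylates leukotrienes and fatty acids. It fell by 0.36 on the log2 scale in males (SE 0.061, adjusted p = 0.0173, edgeR). The 3 males stood at 14.5, 14.99 and 15.4 CPM (KO replicate 1, WT replicates 2 and 3). The 7 females had a lowest level of 18.1, a median of 19.0 and a highest level of 20.1 CPM, so the ranges lay apart. Of all genes 4.81% had ranges that lay apart between the sexes, 2.55% with the males lower. Among the 22 members the log2 fold change lay below 0 in 11, against 51.7% of all genes. KO replicate 5, with the low Xist, stood at 19.1 CPM among the females, and without it the log2 fold change was -0.36 (adjusted p = 0.0265, edgeR). Without KO replicate 1 the number of genes called in the whole table was 0 (1919 had an unadjusted p under 0.05), without KO replicate 2 it was 46, without WT replicate 2 it was 43 and without WT replicate 4 it was 195, by edgeR. For Cyp4f13 the adjusted p was 0.136 without KO replicate 1 and 0.0687 without WT replicate 2, by edgeR, while the log2 fold change stayed between -0.37 and -0.35 with any 1 mouse left out.

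**Figure D4:**
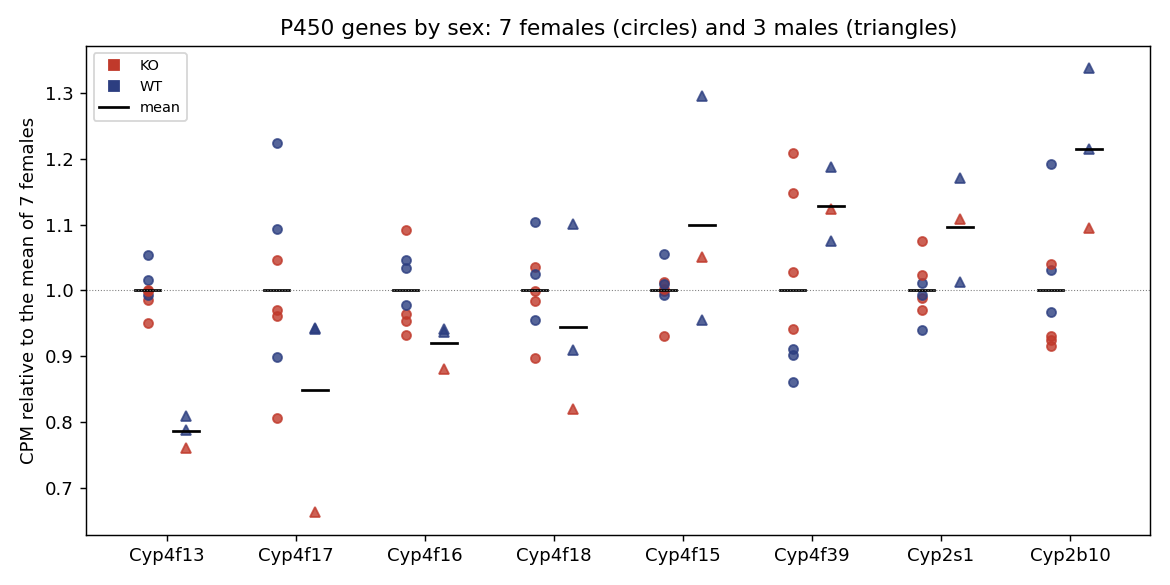
Level of the 6 tested Cyp4f members, Cyp2s1 and Cyp2b10 in each mouse divided by the mean of the 7 mice labelled female (circles), with males as triangles, KO and WT in separate colours and a line at each mean. In Cyp4f13 the 3 males (14.5 to 15.4 CPM) lie below the 7 females (18.1 to 20.1 CPM), and in the other 7 members the sexes overlap.

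Cyp4f13 lies at the end of a cluster of 8 Cyp4f members on chromosome 17 (chr17:32452723-32947402, GRCm38, 494680 bases), of which 5 were tested. Its neighbours did not share its call: the log2 fold change of males against females was -0.31 for Cyp4f17 (SE 0.14, adjusted p = 0.306, edgeR; -0.30 without KO replicate 5, where its unadjusted p was 0.0556), -0.14 for Cyp4f16, 0.12 for Cyp4f15 and 0.23 for Cyp4f39. Only 1.11% of the 50-base windows of Cyp4f13 occurred elsewhere among the transcripts. Whether Cyp4f13 differed between the sexes more than its neighbours did was not tested.

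At an unadjusted p under 0.05, 4 members passed between the sexes, 2 higher and 2 lower in males, against 15.1% of all genes (7.34% higher and 7.79% lower). Besides Cyp4f13 and Cyp4f17 these were Cyp2b10 and Cyp2s1. Cyp2b10 ran from 339 to 415 CPM in males and from 284 to 369.5 CPM in females with a median of 299.8 CPM, so the ranges overlapped. On the log2 scale males were 0.24 higher (SE 0.071, adjusted p = 0.145, edgeR), and DESeq2 called it (adjusted p = 0.0472; 2 members and 436 genes called, 2.42%). Without KO replicate 5 the log2 fold change of Cyp2b10 was 0.23 (adjusted p = 0.195, edgeR). The log2 fold change of Cyp2s1, an epithelial P450, was 0.14 (SE 0.059, adjusted p = 0.276, edgeR), and 0.15 without KO replicate 5. Alveolar type 1 markers were 0.12 higher and club cell markers 0.15 higher in males in mean log2 CPM (exact permutation p = 0.008333 and 0.075, adjusted p = 0.108 and 0.488 over the 13 lists), and their part in these values was not tested. The first is the smallest p that 3 of 10 mice allow. Without KO replicate 5 the differences were 0.12 and 0.15 (exact permutation p = 0.0119, the smallest possible, and 0.107).

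The enzymes and regulators that serve the P450s were read from the same edgeR fit. Of the P450 redox partners, 7 of 8 were tested, and 0 were called between the genotypes. At an unadjusted p under 0.05, 1 was lower in KO: Por, the electron donor of these P450s, at 432 ± 26.6 CPM in KO and 470 ± 40.2 CPM in WT (log2 fold change -0.15, adjusted p = 0.239, edgeR). Of the P450 regulators, 15 of 17 were tested and 0 were called. At an unadjusted p under 0.05, 2 were higher in KO, the lipid receptor Ppard (0.11) and the glucocorticoid receptor Nr3c1 (0.13), and 1 was lower, the xenobiotic receptor Nr1i3 (-0.13). Between the sexes Nr1i3 had -0.26 in males (adjusted p = 0.0922, edgeR), where Cyp2b10 had a positive value. Between the genotypes Cyp2b10 was lower in KO (-0.18), as was Nr1i3. A link between Nr1i3 and Cyp2b10 was not tested. The medians of these 2 lists were -0.04 and -0.00, beside -0.00 over all genes.

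Haem synthesis and breakdown held 12 tested genes. Between the genotypes 0 were called, and 4 had an unadjusted p under 0.05, all lower in KO, with a list median of -0.09. Among them were Urod (log2 fold change -0.18) and Alad (-0.18), enzymes of haem synthesis, and the biliverdin reductase Blvra (-0.22). Against the 8.04% of all genes that were lower at that level, 4 of 12 is a larger share, and no test of the list was made.

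The other phase I enzymes were all tested, 29 of 29. Between the genotypes 0 were called and 5 had an unadjusted p under 0.05, all lower in KO (8.04% of all genes were lower at that level). Among them were Aldh1a1 (-0.19), Cbr2 (-0.25), Xdh (-0.23) and Akr1c12 (-0.62, SE 0.29). Akr1c12 had a low level, 0.444 ± 0.144 CPM in KO and 0.631 ± 0.234 CPM in WT. The median of the list was -0.05. Aldh1a1, a retinal dehydrogenase, and Cbr2, the lung carbonyl reductase, are also among the club cell markers. Between the sexes 2 were called, both higher in males. Aldh1a1 rose from 951 ± 71.6 CPM in females to 1245 ± 132 CPM in males (log2 fold change 0.34, adjusted p = 0.0240, edgeR). The carboxylesterase Ces1g rose from 4.08 ± 0.722 to 7.09 ± 0.952 CPM (log2 fold change 0.80, adjusted p = 0.0328, edgeR). Without KO replicate 5 the log2 fold changes were 0.34 for Aldh1a1 (adjusted p = 0.0423, edgeR) and 0.77 for Ces1g (adjusted p = 0.0542, edgeR). Aldh1a1 lost its call without KO replicate 1 or 2 or without WT replicate 1, 2, 3 or 5 (adjusted p from 0.0501 to 0.121, edgeR), with a log2 fold change from 0.31 to 0.38 over all left-out mice. Ces1g lost its call without KO replicate 1, 2, 3 or 5 or without WT replicate 2 or 5 (adjusted p from 0.0542 to 0.203, edgeR), with a log2 fold change from 0.70 to 0.91. At an unadjusted p under 0.05, 9 of the 29 were higher and 2 lower in males, against 7.34% and 7.79% of all genes, and 9 and 3 without KO replicate 5. No test of the list was made. In the other lists 0 genes were called between the sexes. With an unadjusted p under 0.05 were 1 higher and 1 lower among the regulators, and 3 higher and 2 lower in haem metabolism. Among the Ahr-responsive genes 1 was higher, and among the redox partners 0 passed. These counts were the same without KO replicate 5. The Ahr-responsive gene was Aldh3a1, which is also on the list of phase I enzymes, as is Nqo1.

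Of the remaining marker lists, the alveolar type 2 list was lower in KO by mean log2 CPM (-0.11, exact permutation p = 0.0397, adjusted p = 0.172 over the 13 lists), as was the hepatocyte list (-0.34, exact permutation p = 0.0238, adjusted p = 0.155). Only 2 of the 9 hepatocyte genes, Alb and Trf, had a mean of at least 1 CPM and entered the latter, and with a minimum of 5 CPM, which leaves out Alb, the difference was -0.04 (exact permutation p = 0.278). The gland or large airway list, which holds Bpifb1, differed by -1.13 (exact permutation p = 0.007937, the smallest that 5 against 5 mice allow, adjusted p = 0.103). Without Bpifb1, a step chosen after seeing the data, it differed by -0.04 (exact permutation p = 0.714). The ciliated, alveolar type 1, endothelial, fibroblast, smooth muscle, neutrophil, alveolar macrophage and cardiac muscle lists differed by 0.02, -0.07, 0.08, 0.06, -0.05, -0.04, -0.08 and 0.25, with exact permutation p-values from 0.135 to 0.817.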

How the data were processed

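Per the labels' protocols, stranded mRNA libraries were sequenced as single reads of 50 bases. The authors deposited 1 table of estimated counts per gene, not scaled between samples. Values above 0 were whole to within 0.01 except for 30.1% of them. Per the submitters' processing notes, STAR 2.6.0, Salmon 0.9.1, FastQC, MultiQC and the build mm10 (GRCm38) were used. Which program made the counts, the gene annotation and the use of strand are not given in the sources used here. All columns belonged to a sample, so 0 were set aside.

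Counts were rounded. Symbols, exons and coordinates came from GENCODE M21 (47281 identifiers matched, 52 did not). Genes were kept by filterByExpr (minimum count 10, minimum total 15), which left 18024. The test was edgeR's quasi-likelihood test (edgeR 4.0.16, R 4.3.3, robust, TMM) with genotype and sex as terms and Benjamini-Hochberg adjustment over all genes, and calls were made at an adjusted p under 0.05. All tests were two-sided. The standard error is the absolute log2 fold change over the square root of F. Marker lists were averaged per mouse as log2 CPM (prior count 2) over genes with a mean of at least 1 CPM, and compared by exact permutation over 252 divisions of the mice (120 for sex). The marker list comparisons used no covariate. The floor of 3 counts covers counting error only, since reads are not independent molecules.

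Alternatives were DESeq2 1.42.0 (test and size factors), limma-voom (limma 3.58.1), other filters, no robust dispersion, no covariate, females alone, an adjusted p under 0.1 and leaving out each mouse; those for called pathway genes were added after seeing the data. Named were members called or with an unadjusted p under 0.05 in either comparison, the 10 highest per kilobase and members listed by role. For each of the 5 pathway lists up to 4 genes with the smallest p were to be named; Ahr, Tiparp, Nqo1, Aldh3a1 and a phase I enzyme beyond that number were named after their values were seen. Some listed genes are not reported here. Members and lists were chosen with earlier results of these data known.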

Additional observations from a re-analysis of the deposited data

Results flagged for a closer look

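For each of the 22 tested members the highest and lowest mouse were compared with the rest of the KO mice, the WT mice and the females, 66 sets in all, of which chance alone would mark about 3.3. In 5 sets a mouse lay far from the others. Cyp4f13 stood at 14.5 CPM in KO replicate 1, the only KO male, against 18.1 to 19.1 CPM in the other KO mice. Cyp2j9 stood at 5.76 CPM in WT replicate 2, against 7.54 to 7.72 CPM in the other WT mice. Cyp1b1 stood at 12.2 CPM in WT replicate 5, against 10.3 to 10.7 CPM in the other WT mice. Cyp3a13 stood at 4.09 CPM in WT replicate 3, against 5.35 to 5.71 CPM in the other WT mice. It also stood at 3.79 CPM in KO replicate 5, the mouse labelled female with the low Xist, against 5.16 to 5.71 CPM in the other females.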

How the results depend on the processing

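Between KO and WT, 0 members were called in each of the 19 alternatives. Of 395 alternative values, 383 kept their direction and side of the threshold and 12 turned, none of them called. Cyp4f13 gave 0.00929 without the sex covariate, and Cyp2j9 gave -0.00283 without a filter, -0.00213 by limma-voom and -0.0866 in females alone. With 1 mouse left out, Cyp2e1 ran from -0.71 to 0.0199, Cyp2j6 from -0.10 to 0.0375, Cyp2j9 from -0.0862 to 0.0570 and Cyp4a12b from -0.55 to 0.00838. Between the sexes, 376 of 407 values kept direction and side, with Aldh1a1 and Ces1g included. DESeq2 called 2 members, and leaving out 1 mouse gave 0 to 1. Cyp4v3 gave -0.000358 with a mean of at least 1 CPM. With 1 mouse left out, Cyp4v3 ran from -0.0489 to 0.0357, Cyp2e1 from -0.26 to 0.51, Cyp2j6 from -0.12 to 0.0503, Cyp1a1 from -0.51 to 0.35, Cyp2j9 from -0.20 to 0.0588 and Cyp1b1 from -0.0659 to 0.0851. For the marker lists, 149 of 157 kept direction and side; the ciliated list ran from -0.00971 to 0.0477, smooth muscle from -0.10 to 0.0265, neutrophil from -0.17 to 0.0209, adipocyte from -0.13 to 0.34 and cardiac muscle from -0.0144 to 0.42. The cause was not tested. No paired analysis was possible because the labels give the mice no shared replicate numbers. With 3 males, 1 of them KO, an interaction of sex and genotype was not tested.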

Other observations

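Cyp2f2, the naphthalene-oxidising P450 of club cells that the rule set aside, had 1433 CPM per kb, above every member. WT mice had 3041 ± 357 CPM (SD, n = 5) and KO mice 2764 ± 228 CPM (SD, n = 5). The KO to WT difference was -0.10 on the log2 scale (SE 0.072, adjusted p = 0.504, edgeR). Its log2 fold change of males against females was 0.20 (adjusted p = 0.248, edgeR), and 0.20 without KO replicate 5 (adjusted p = 0.292, edgeR). Of the 19 non-coding genes whose symbols name the same families, none had enough counts to be tested. The pseudogenes Cyp4f41-ps and Cyp4b1-ps2 had 23 and 22 counts over the 10 mice, and Cyp4b1-ps1 had 5.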
